A study of Mus musculus with 17 samples.

Results

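Imprinted genes of growth control were followed in the cortex of Hnrnph2-mutant mice and their wild-type littermates. The set was fixed by name as Igf2, H19, Dlk1, Meg3, Peg3, Plagl1, Cdkn1c, Grb10, Ndn and Mest, and all 10 were found among the 55453 gene symbols of the expression table. Of these, 8 had a mean of at least 1 TPM (the usual length-corrected share of all transcripts in a library) and were among the 16265 genes tested. H19 and Dlk1 were below that level and are given as values.

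Hnrnph2, an X-linked gene, codes for a splicing regulator of the hnRNP class. RNA-seq of dissected, frozen bulk cortex was done in male C57BL/6J mice in 6 groups, to ask how loss of the gene or a disease-linked substitution changes expression. The knockout (KO) mice, hemizygous for a frameshift allele whose transcript is subject to nonsense-mediated decay, were 8 weeks old (n = 3), as were hemizygous R206W knockin mice (n = 3). Hemizygous P209L knockin mice were 3 weeks old (n = 3). Each line had wild-type male littermates of the same age as controls, with 3 for the KO line, 3 for the R206W line and 2 analysed here for the P209L line. All 3-week mice belonged to the P209L line, so age and line cannot be told apart. Each mutant group stands for 1 allele, and no source used here says that the mice of a group came from separate litters, so p-values measure the spread between these mice. TPM keeps no record of depth, which is therefore unknown.

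Imprinted genes are expressed mainly from a single parental copy, which is set by methylation inherited from the egg or the sperm. Genes expressed from the paternal copy, such as Igf2, Dlk1, Peg3, Plagl1 and Mest, tend to promote growth, whereas genes expressed from the maternal copy, such as H19, Cdkn1c and Grb10, tend to restrain it. Many members are high in the fetus and shut down in most organs after birth, and in the brain several escape the usual parental pattern, with Grb10 used from the paternal copy in neurons. Values of inbred mice hold no information on the parental copy.

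The members lie in known imprinted clusters. Igf2 (ENSMUSG00000048583.16, chromosome 7, 142650766 to 142666816, minus strand) and H19 (ENSMUSG00000000031.16, chromosome 7, 142575529 to 142578143, minus strand) are neighbours, with Cdkn1c (ENSMUSG00000037664.13, chromosome 7, 143458339 to 143461050, minus strand) close by. Dlk1 (ENSMUSG00000040856.17, chromosome 12, 109452823 to 109463336) and the long noncoding RNA Meg3 (ENSMUSG00000021268.17, chromosome 12, 109541001 to 109571726) form a second cluster on the plus strand. Peg3 (ENSMUSG00000002265.16) and Ndn (ENSMUSG00000033585.5) lie elsewhere on chromosome 7, Plagl1 (ENSMUSG00000019817.18) on chromosome 10, Grb10 (ENSMUSG00000020176.17) on chromosome 11 and Mest (ENSMUSG00000051855.15) on chromosome 6. These positions are from GENCODE M21 on GRCm38. Exons of Mest overlap those of Copg2 on the opposite strand, which had a mean of 36.2 TPM, and whether strand was used in counting is not given in the sources used here. The overlapping partners of the other members had means of at most 0.202 TPM.

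ZFP57, a zinc finger protein that keeps methylation at imprinting control regions, is known to bind the hexamer TGCCGC when its CG is methylated. That hexamer was searched on both strands in promoter windows of RefSeq (GRCm38.p6), which run from 250 bases before to 50 bases after a start. Of all 32851 windows 11.6% held it, and of 15 windows for 8 members, 6 windows in 5 members did. A pair of these 6, both of Mest, share all but a few bases and the same hexamers, so 5 of 14 separate windows held it. Meg3 and Plagl1 are shown because they passed the test between 3 and 8 weeks in control mice, and Igf2 because it was low in every P209L mouse. For Igf2 and Meg3, which have several windows, the window shown is the one that held the hexamer. Each is written 5′ to 3′ on the strand of its gene, with the hexamer or its reverse complement GCGGCA in capitals. The Meg3 window is chr12:109540746-109541045 (plus strand), the Plagl1 window chr10:13090582-13090881 (plus strand) and the Igf2 window chr7:142661222-142661521 (minus strand).
Meg3: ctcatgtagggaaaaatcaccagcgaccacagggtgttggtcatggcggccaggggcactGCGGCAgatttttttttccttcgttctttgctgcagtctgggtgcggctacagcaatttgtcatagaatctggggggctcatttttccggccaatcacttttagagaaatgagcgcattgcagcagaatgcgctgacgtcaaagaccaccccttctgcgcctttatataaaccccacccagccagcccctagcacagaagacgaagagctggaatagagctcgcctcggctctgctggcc
Plagl1: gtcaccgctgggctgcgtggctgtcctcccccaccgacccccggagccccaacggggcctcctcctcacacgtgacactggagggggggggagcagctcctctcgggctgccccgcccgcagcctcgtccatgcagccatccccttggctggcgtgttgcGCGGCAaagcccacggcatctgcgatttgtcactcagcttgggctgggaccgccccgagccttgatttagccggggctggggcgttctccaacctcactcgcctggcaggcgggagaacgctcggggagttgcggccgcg
Igf2: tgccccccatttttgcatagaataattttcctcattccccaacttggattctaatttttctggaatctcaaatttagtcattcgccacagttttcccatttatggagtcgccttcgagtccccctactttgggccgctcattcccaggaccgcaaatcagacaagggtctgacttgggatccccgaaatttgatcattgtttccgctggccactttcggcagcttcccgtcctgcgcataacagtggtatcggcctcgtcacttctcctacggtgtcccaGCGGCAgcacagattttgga
The windows shown held 13, 26 and 14 CG dinucleotides, against a median of 7 over all windows. They were chosen for the hexamer, which itself holds a CG. The Meg3 window not shown held 1 CG, and the Igf2 windows not shown held 2, 24 and 7. A match says only that these letters are present, and the table measured no methylation.

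The libraries were checked first. Hnrnph2 was between 21.3 and 24.4 TPM in KO mice and between 80.5 and 160 TPM in all other mice. Cortical neuron markers added up to 2629 to 5459 TPM, led by Snap25, and hypothalamic neuropeptides to 2.85 to 9.22 TPM. Mitochondrial transcripts took 20.1% of KO control 1 and 10.7% to 15.4% of the other mice. Ttr, the defining transcript of the choroid plexus, was at 1740 TPM in P209L control 2 and between 0.67 and 23.2 TPM elsewhere. Values without either of these 2 mice are given beside the results that they move most.

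The levels of the members, in TPM and so corrected for transcript length, lay far apart. Meg3 had by far the highest mean, at 1886 ± 403 TPM (SD, n = 17), and Peg3, a zinc finger protein gene, followed at 110 ± 19.4 TPM. Ndn, which encodes the MAGE family protein necdin, was at 37.7 ± 7.56 TPM and Igf2, which encodes a fetal growth factor, at 36.1 ± 11.5 TPM. Ndn exceeded Igf2 in only 11 of 17 mice, and these neighbours in the order did not differ beyond their spread. Mest, a hydrolase-fold enzyme gene, was at 23.8 ± 6.50 TPM, Grb10, an adaptor that dampens insulin and IGF receptors, at 19.1 ± 2.98 TPM, and Plagl1, a zinc finger transcription factor gene, at 12.9 ± 3.07 TPM. The per-mouse ranges of Igf2, Mest, Grb10 and Plagl1 overlapped from each gene to the next. Cdkn1c, an inhibitor of cyclin-dependent kinases, stood apart below them at 5.05 ± 1.43 TPM. Dlk1, a membrane ligand related to Notch ligands, had 0.496 ± 0.362 TPM and the noncoding RNA H19 had 0.376 ± 0.264 TPM, and Dlk1 exceeded H19 in 10 of 17 mice. The plot shows each mouse by group, where age cannot be told apart from line.

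**Figure D1:**
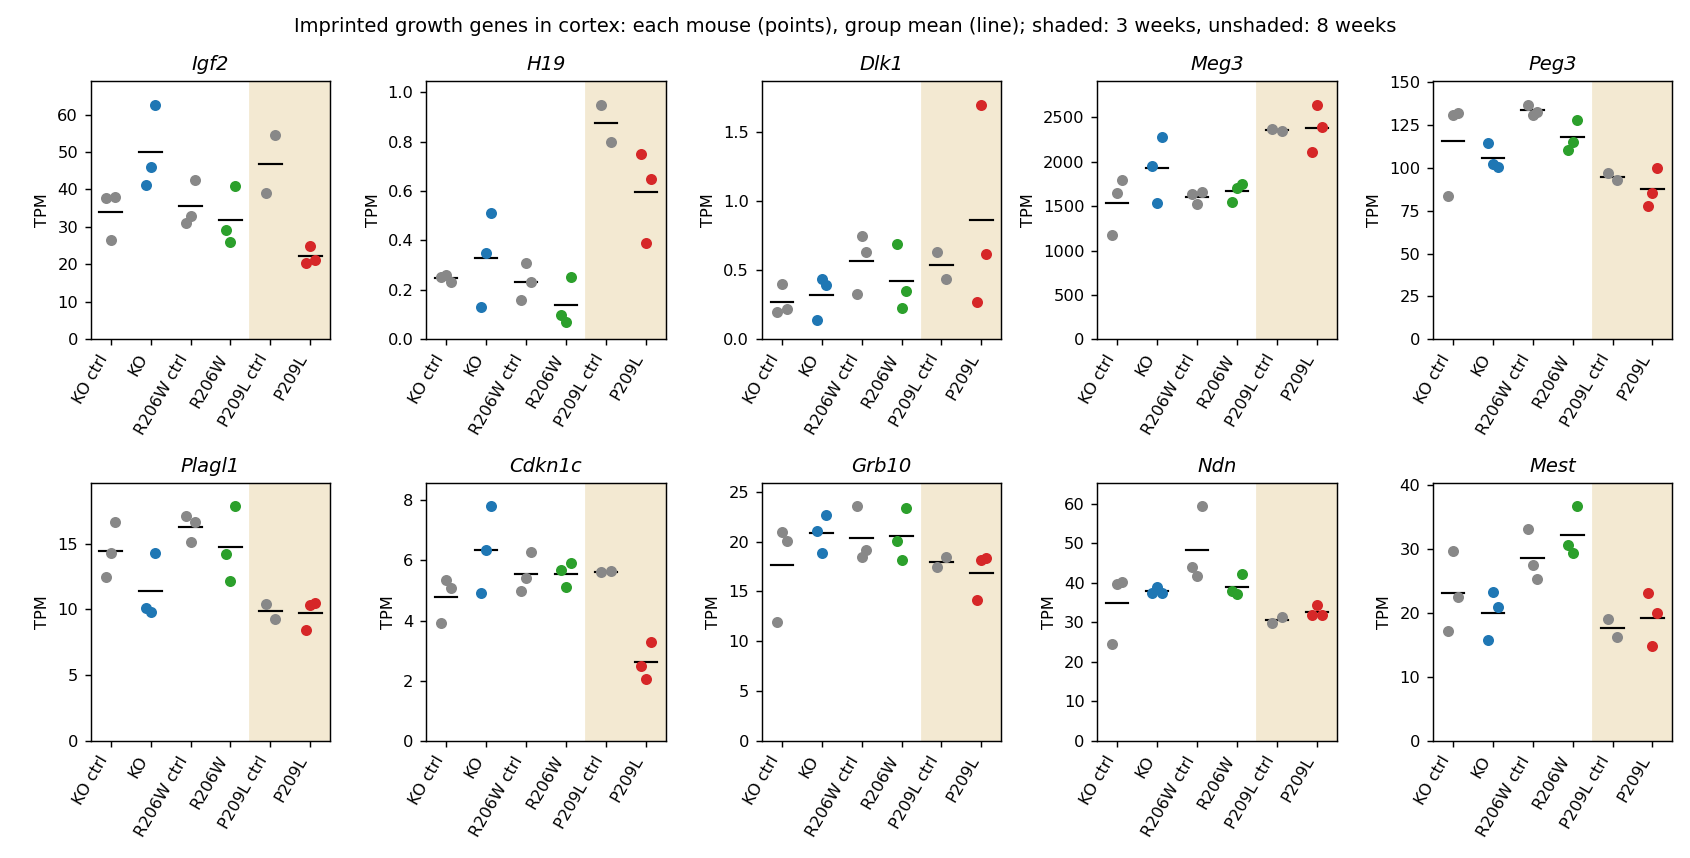
TPM of the 10 members (vertical axes, each from 0) in each mouse (points) of the 6 groups, with the group mean as a line and 3-week groups shaded. Meg3 lay between 2106 and 2645 TPM in the 3-week mice and between 1169 and 2280 TPM in the 8-week mice, and Igf2 and Cdkn1c were lowest in the 3 P209L mice.

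Wild-type littermates of 8 weeks (both lines, n = 6) were compared with those of 3 weeks (n = 2) to describe the postnatal course. Meg3, the noncoding RNA of the Dlk1 cluster, was lower at 8 weeks and Plagl1 was higher. No other tested member passed an adjusted p of 0.05, although the noncoding RNA H19, low throughout, was lower at 8 weeks when genes of any level were tested. Between these groups 36.1% of all genes tested passed (24.8% higher, 11.3% lower), around a median log2 change of 0.12, so 2 of 8 members is no larger share than among all genes. Groups without overlap were found for 38.2% of genes.

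Meg3 stood at 2364 and 2345 TPM in the 3-week controls. At 8 weeks the KO-line controls had 1169, 1645 and 1795 TPM and the R206W-line controls 1639, 1522 and 1656 TPM. Every 8-week control was below both 3-week controls, and KO control 1 was the lowest. The difference was -0.60 (SE 0.157) on the log2(TPM + 1) scale, or 66.2% of the 3-week level, with an adjusted p = 0.00861 by limma over all genes. It kept its size but not its call without either 3-week control (adjusted p = 0.0707 and 0.0684), and with quantile normalization it was -0.24 (adjusted p = 0.240). Beside Meg3 lie noncoding RNAs of the same cluster, singled out here after their values were seen. Mirg was also lower at 8 weeks, by -0.68 (SE 0.231, adjusted p = 0.0309). Rian had a difference of -0.21 and did not pass (adjusted p = 0.0706), with groups that did not overlap.

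Plagl1 stood at 10.4 and 9.31 TPM in the 3-week controls. At 8 weeks it had 12.4, 14.3 and 16.6 TPM in KO-line controls and 17.1, 15.2 and 16.7 TPM in R206W-line controls. The ages did not overlap, and the log2 difference was 0.58 (SE 0.158, adjusted p = 0.0101). It did not pass without P209L control 2 (0.51, adjusted p = 0.115) or against the KO-line controls alone (0.50, adjusted p = 0.0503). Against the R206W-line controls alone it was 0.67 (adjusted p = 0.00933).

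Mest, Peg3 and Ndn had positive differences that fell short of the threshold, and KO control 1 was the lowest 8-week control for each. Peg3 had 83.8, 131 and 132 TPM in KO-line controls, 137, 131 and 133 TPM in R206W-line controls, and 96.9 and 93.0 TPM at 3 weeks. All 8-week controls but KO control 1 were above both 3-week mice. The log2 differences were 0.37 (SE 0.149, adjusted p = 0.0631) for Peg3, 0.38 (SE 0.163, adjusted p = 0.0779) for Ndn and 0.50 (SE 0.198, adjusted p = 0.0579) for Mest. Without KO control 1 all 3 passed, at 0.48 (adjusted p = 0.000825), 0.50 (adjusted p = 0.00197) and 0.60 (adjusted p = 0.0128). The median of all genes was then 0.18.

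Igf2 ran the other way, with 37.8, 26.6 and 37.9 TPM in KO-line controls, 31.0, 32.9 and 42.6 TPM in R206W-line controls, and 39.1 and 54.5 TPM at 3 weeks. The ages overlapped, and the log2 difference of -0.41 (SE 0.204) did not pass (adjusted p = 0.124). It was -0.18 without P209L control 2, the mouse with 1740 TPM of Ttr, and -0.65 without P209L control 1. It passed in 3 of 30 alternatives, with quantile normalization (-0.57), a replicate block (-0.52) and sample weights (-0.55). Cdkn1c and Grb10 had differences of -0.11 and 0.05, with 95% confidence intervals of -0.45 to 0.22 and -0.33 to 0.43, and that of Grb10 turned to -0.06 with median-of-ratios scaling and was 0.17 without KO control 1.

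H19 was at 0.95 and 0.80 TPM in the 3-week controls and between 0.16 and 0.31 TPM in the 8-week controls. These values lay apart, and with genes of any level in the fit the log2 difference was -0.60 (SE 0.105, adjusted p = 0.00219). Dlk1 was between 0.20 and 0.75 TPM in the 8-week controls and at 0.63 and 0.44 TPM at 3 weeks, so its ages overlapped and its log2 difference, -0.12, did not pass (adjusted p = 0.801). At such levels log2(TPM + 1) understates the fold.

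The mutant mice give the same ages without sharing a mouse, but P209L mice differ from KO and R206W mice in the allele as well as in age. At 8 weeks, 4 of the 8 tested members passed as higher than in P209L mice and Meg3 passed as lower. Of all genes tested 45.9% passed (32.1% higher, 13.9% lower), and 40.2% had groups without overlap. Meg3 had 1956, 1536 and 2280 TPM in KO mice, 1549, 1702 and 1749 TPM in R206W mice and 2106, 2645 and 2394 TPM in P209L mice. KO 3 was within the 3-week range and the other 8-week mutants were below it. The log2 difference was -0.42 (SE 0.136, adjusted p = 0.0209). It did not pass without P209L 2 (-0.34) or P209L 3 (-0.41), with quantile normalization (-0.30) or without a filter on low genes, and passed in the other 24 of 28 alternatives.

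Plagl1 was higher at 8 weeks by 0.37 (SE 0.137, adjusted p = 0.0381) and Peg3 by 0.35 (SE 0.129, adjusted p = 0.0382). For Peg3 the 8-week mutants, at 101 to 128 TPM, lay just above the 3-week mutants, at 77.9 to 100.3 TPM. For Plagl1 the ages overlapped, since KO 1 and KO 2 had 10.1 and 9.78 TPM and P209L mice had 8.40, 10.3 and 10.5 TPM. Neither passed without P209L 1, P209L 2 or R206W 3, or with median-of-ratios scaling (0.22 and 0.18), and each was lost without 2 further mice, KO 3 and R206W 1 for Plagl1 and KO 1 and R206W 2 for Peg3. In all, Plagl1 passed in 18 of 28 alternatives and Peg3 in 21. H19 was lower by 0.37 on the log2 scale when genes of any level were fitted (adjusted p = 0.00981), with 0.75, 0.39 and 0.65 TPM in P209L mice and 0.07 to 0.51 TPM in 8-week mutants.

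Igf2 and Cdkn1c were the members whose mutant mice went another way than the controls. Both were higher in 8-week mutants than in P209L mice, Igf2 by 0.81 (SE 0.177, adjusted p = 0.00196) and Cdkn1c by 0.95 (SE 0.137, adjusted p = 0.000101), and the groups did not overlap for either gene. They passed in all 28 alternatives. The difference between the postnatal changes of mutants and controls, which was chosen as a contrast with the values in view, was 1.22 (SE 0.270) for Igf2 and 1.06 (SE 0.209) for Cdkn1c. Each had an adjusted p = 0.234, so the difference itself did not pass, as it did for 0.0184% of genes. For Cdkn1c it passed with median-of-ratios scaling, quantile normalization, a replicate block and sample weights.

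**Figure D2:**
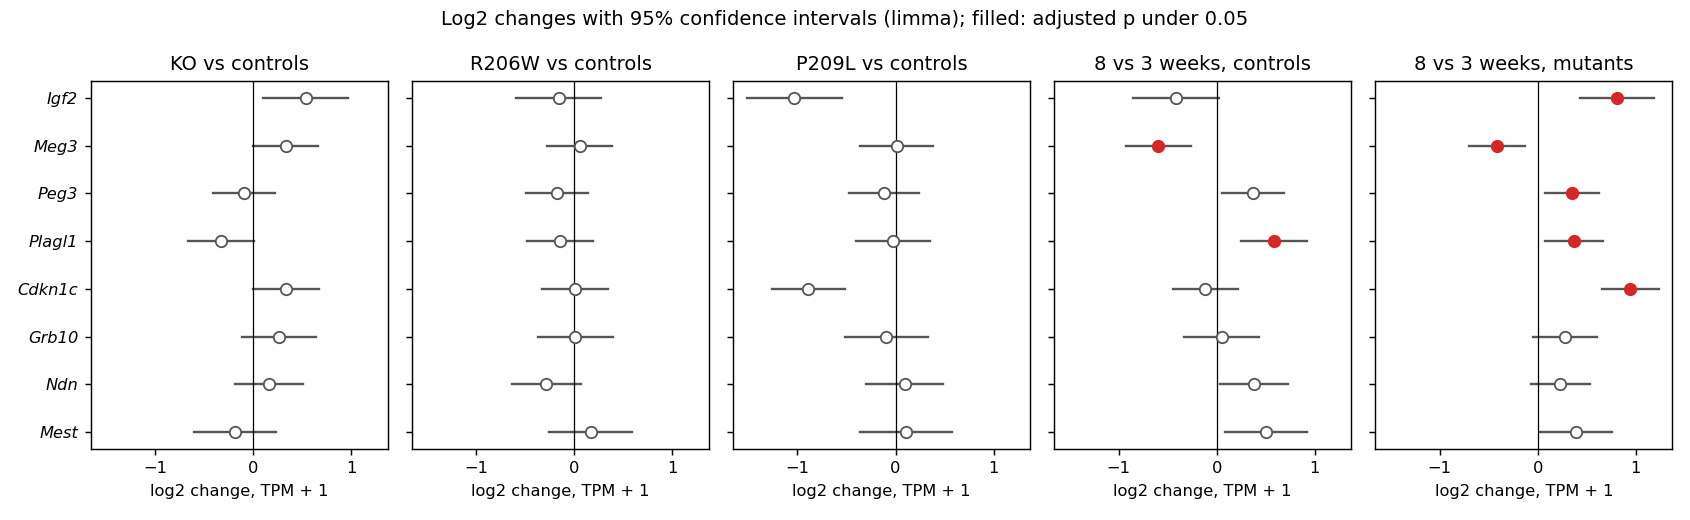
Log2 changes of the 8 tested members with 95% confidence intervals (horizontal axes, log2(TPM + 1) scale) in the 5 comparisons of groups, with filled points for an adjusted p under 0.05. Filled points occur only in the comparisons of ages, where Meg3 is left of 0 and Plagl1 right of 0 in both, and Igf2 and Cdkn1c are far left of 0 in P209L mice without passing.

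The P209L mice were then compared with their own littermates at 3 weeks, the same 5 mice that gave the 3-week levels above. Igf2 and Cdkn1c had the lowest values of the study in these mutants. No member passed the adjusted threshold, which 16 genes (0.0984% of those tested) did. An unadjusted p under 0.05 was found for 2 of the 8 tested members, Igf2 and Cdkn1c, and for 7.46% of genes.

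Cdkn1c had 2.50, 2.06 and 3.29 TPM in P209L mice, and both controls had more, the lower at 5.6 TPM and the higher at 5.66 TPM. All 3 mutants were below every other mouse of the study, whose lowest value was 3.93 TPM. The log2 change was -0.89 (SE 0.177), or 54.0% of control, with an unadjusted p = 0.000136 and an adjusted p = 0.0844 by limma. The adjusted p was between 0.0119 and 0.779 over the alternatives, and 6 of 28 brought it under the threshold, among them the fit without KO control 1 (-0.89, adjusted p = 0.0353), which changed the shared spread and not the P209L mice. With P209L control 2 left out the change was -0.88.

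Igf2 had 20.3, 24.9 and 21.2 TPM in P209L mice and 39.1 and 54.5 TPM in their controls. Again the groups did not overlap, and the mutants were below every other mouse. The log2 change was -1.03 (SE 0.228), or 48.8% of control, with an unadjusted p = 0.000364 and an adjusted p = 0.123. It was -0.80 without P209L control 2, with 1740 TPM of Ttr, and -1.27 without P209L control 1. A replicate block alone brought it under the threshold, at -1.14 (adjusted p = 0.0336).

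Groups that do not overlap were common with 3 mice against 2, at 24.9% of all genes tested. Besides Igf2 and Cdkn1c, both lower, Ndn did not overlap, at 31.9, 34.4 and 32.0 TPM in P209L mice against 29.9 and 31.4 TPM in controls, a log2 change of 0.09. The other 5 tested members had changes from -0.12 for Peg3 to 0.11 for Mest, of which only those of Peg3 kept their direction in every alternative. Their 95% intervals reached -0.52 for Grb10 and 0.58 for Mest. H19 was at 0.75, 0.39 and 0.65 TPM against 0.95 and 0.80 TPM, lower in each mutant.

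Igf2 in adult brain is known mainly from the leptomeninges, the choroid plexus and vessels, so markers of these cells were set beside it. Leptomeningeal fibroblast markers were below control in P209L mice for 12 of 12 genes, with a median log2 change of -0.53, although 0 passed. Their summed level was 44.8, 56.6 and 35.7 TPM in P209L mice and 62.6 and 61.3 TPM in the controls, and 49.96 to 101 TPM at 8 weeks, with no marker at 0 in any mouse. Igf2 per TPM of that sum was 0.452, 0.440 and 0.593 in P209L mice and 0.625 and 0.890 in their controls. The ratio did not overlap either. At 8 weeks this ratio was 0.459 to 0.561 in KO controls and 0.460 to 0.491 in R206W controls. It was 0.399 to 0.518 in R206W mice and 0.608 to 0.751 in KO mice. P209L mice thus overlapped both control groups of 8 weeks. Dcn was the largest marker of the sum, at 13.4 to 32.9 TPM in P209L mice and 19.7 and 23.4 TPM in their controls, so the ratio rests much on it. Cdkn1c per TPM of the sum was 0.0558, 0.0364 and 0.0921 in P209L mice and 0.0895 and 0.0924 in their controls, so that P209L 3 lay between the controls on this ratio.

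Other cell type markers moved as well. Endothelial and mural markers were each below control for 8 of 8 genes, with medians of -0.26 and -0.29, and oligodendrocyte markers for 8 of 8 with a median of -0.79, which was 2505 to 3593 TPM in sum against 4134 and 6183 TPM. Choroid plexus markers, of which 3 of 8 could be tested, added up to 6.42 to 16.8 TPM in P209L mice and to 11.1 and 1786 TPM in the controls. Without P209L control 2 the medians were -0.51 for leptomeningeal, -0.13 for endothelial, -0.15 for mural and -0.53 for oligodendrocyte markers. P209L control 1 had little of the choroid plexus markers, and Igf2 was higher there than in each P209L mouse. Over all genes of the reported fit the median was 0.02, with 7507 of 16265 below 0. The part of these cell types in the Igf2 and Cdkn1c values was not tested, and in bulk tissue fewer cells of a type and less RNA per cell cannot be told apart.

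**Figure D3:**
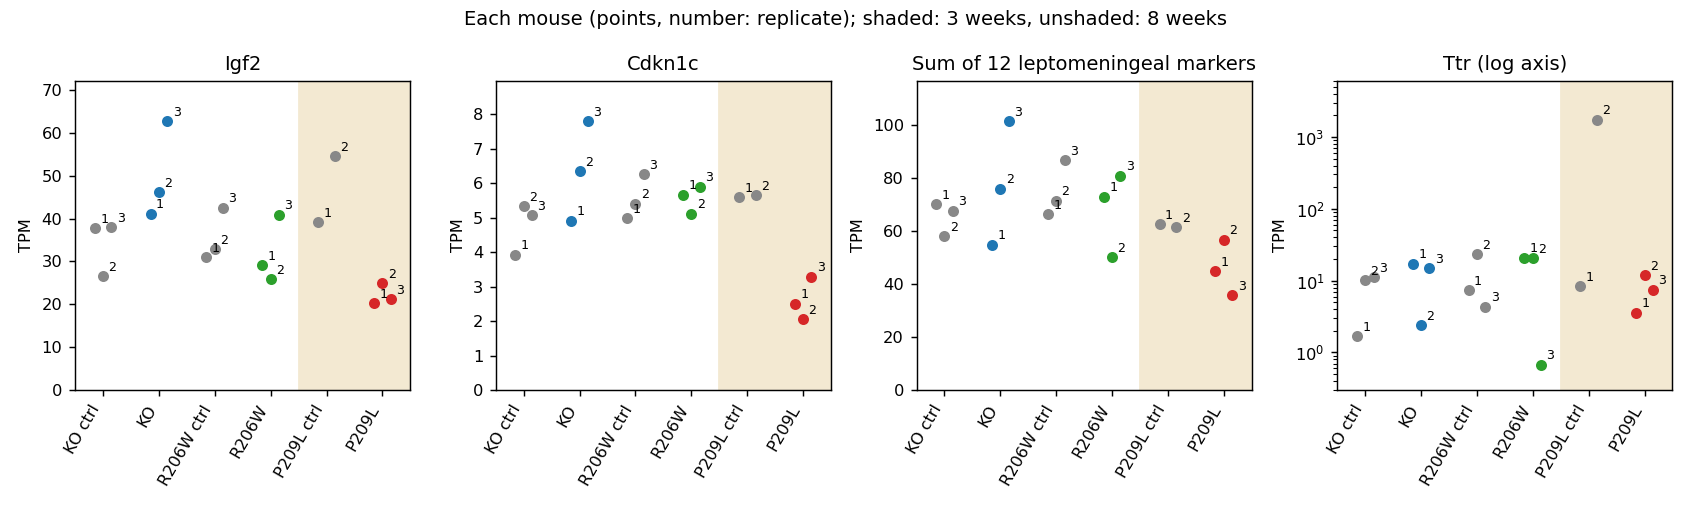
TPM of Igf2, Cdkn1c, the sum of 12 leptomeningeal markers and Ttr (vertical axes, log scale for Ttr) in each mouse, numbered by replicate, with 3-week groups shaded. P209L mice are lowest for Igf2 and Cdkn1c, and P209L control 2 stands apart in Ttr. In the marker sum all P209L mice lie below both of their controls, and only P209L 2 lies within the range of the unshaded groups.

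In KO mice Igf2 was higher than in their controls without passing the adjusted test. No member passed, where 1 gene did (0.00615% of those tested). Of the 8 tested members 2 had an unadjusted p under 0.05, as had 4.08% of genes. Igf2 was at 41.1, 46.1 and 62.7 TPM in KO mice and at 37.8, 26.6 and 37.9 TPM in controls, so the groups did not overlap, as for 5.43% of all genes with KO mice higher. The log2 change was 0.53 (SE 0.204) with an unadjusted p = 0.0192 and an adjusted p = 0.999. It was 0.61 without KO control 1 and 0.36 without KO 3. With sample weights, which gave KO control 1 a weight of 0.0818, it passed at 0.60 (adjusted p = 0.0277). The leptomeningeal markers had a median of 0.24 in the same comparison, 11 of 12 above 0, with sums of 54.8 to 101 TPM in KO mice and 58.0 to 70.1 TPM in controls. Endothelial markers had a median of 0.34, 8 of 8 above 0, and mural markers one of 0.43, 7 of 8 above 0. Over all genes the median was 0.06, with 10942 of 16265 above 0. Oligodendrocyte markers had 7 of 8 above 0 and cortical neuron markers 4 of 9. Without KO control 1 the leptomeningeal, endothelial and mural medians were 0.26, 0.12 and 0.14, and that of all genes was -0.06. No marker of these lists passed, and their part in the Igf2 values was not tested. KO 3 was highest in both that sum and Igf2, while KO 1 had 41.1 TPM of Igf2 at the lowest sum of its line. Igf2 per TPM of the sum was 0.608 to 0.751 in KO mice and 0.459 to 0.561 in controls.

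The other members overlapped between KO mice and controls. Cdkn1c was at 4.91, 6.36 and 7.80 TPM against 3.93, 5.34 and 5.07 TPM, a log2 change of 0.34 (SE 0.158, unadjusted p = 0.0490). Meg3 had a change of 0.33 and Plagl1 of -0.33, and without KO control 1 they were 0.14 and -0.42. Grb10 had a change of 0.27, which was 0.02 without KO control 1, where it stood at 11.9 TPM against 20.95 and 20.03 TPM in the other controls. Ndn, Peg3 and Mest had changes of 0.16, -0.10 and -0.18, and those of Ndn (without KO control 1), Peg3 (without KO control 2 or 3) and Mest (without KO control 2) turned sign. KO control 1 was the lowest of the 6 controls of its age for 8 of the members, among them Meg3, Peg3, Grb10 and Ndn. Sample weights, which lowered that mouse, put 4 members past the threshold, with Igf2 higher and Mest (-0.65), Peg3 (-0.23) and Plagl1 (-0.47) lower, in a fit that called 2156 genes.

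In R206W mice the log2 changes of the tested members ran from -0.29 for Ndn to 0.17 for Mest, with a 95% interval of -0.25 to 0.59 for Mest. No member passed, where 6 genes did (0.0369% of those tested), and 0 of the 8 tested members had an unadjusted p under 0.05 against 2.19% of genes. Peg3 was at 111, 115 and 128 TPM against 137, 131 and 133 TPM in controls, so that all mutants were below all controls, as for 8.11% of genes. Its log2 change was -0.18 (SE 0.149), near the size of its error, with an adjusted p = 1.00. Ndn had a change of -0.29 (SE 0.163), with 37.9, 37.1 and 42.2 TPM against 44.0, 41.6 and 59.4 TPM, and of -0.13 without R206W control 3, the highest of these. Igf2 was at 29.1, 25.9 and 40.9 TPM against 31.0, 32.9 and 42.6 TPM, a change of -0.16 with a 95% interval of -0.59 to 0.27. Cdkn1c and Grb10 had log2 changes of 0.0051 and 0.01, with intervals of -0.33 to 0.34 and -0.37 to 0.39, and both turned below 0 with sample weights. H19 was at 0.10, 0.07 and 0.25 TPM against 0.16, 0.31 and 0.23 TPM.

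KO and R206W mice were matched in age, which allowed a test between their effects. No member differed, where 0.0307% of genes did and 2.29% had an unadjusted p under 0.05. The widest difference was that of Igf2, at 0.69 (SE 0.289, KO minus R206W), with a 95% interval of 0.08 to 1.31, an unadjusted p = 0.0293 and an adjusted p = 1.00. Ndn had 0.44 (SE 0.231) and Mest -0.35 (SE 0.280), and without KO control 1 they had 0.21 and -0.54.

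The surroundings of the members in their clusters, other imprinted loci and the IGF axis were taken from lists drawn up by name. They were compared between 3 and 8 weeks in wild-type mice. Genes counted as higher or lower passed the threshold. Of 12 tested cluster neighbours (22 listed) 6 were higher at 8 weeks and 2 lower, of 19 imprinted genes at other loci 6 were higher and 1 lower, and of 12 tested IGF axis genes (14 listed) 4 were higher and 1 lower, against 24.8% and 11.3% of all genes. Their median log2 changes were 0.39, 0.12 and 0.33, beside 0.12 over all genes. No gene of the 3 lists passed in a mutant line against its controls. In the mutants of 8 against 3 weeks, 5 of 12 neighbours were higher and 2 lower, 9 of 19 at other loci higher and 2 lower, and 9 of 12 of the IGF axis higher and 1 lower, against 32.1% and 13.9% of all genes. Without P209L control 2 the counts between control ages were 4 higher and 1 lower for the neighbours, 4 and 0 for other loci and 2 and 0 for the IGF axis, where 11.7% and 4.99% of all genes passed. Without KO control 1 they were 7 and 3, 9 and 3, and 7 and 1, where 37.4% and 12.9% passed.

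Near the members, Ube3a, a ubiquitin ligase gene of the Ndn cluster, was at 40.6 ± 3.44 TPM (SD, n = 6) at 8 weeks and at 18.2 ± 1.88 TPM (SD, n = 2) at 3 weeks, a log2 difference of 1.12 (SE 0.150, adjusted p = 0.000102). Mkrn3, a zinc finger gene of the same cluster known as a brake on puberty, ran the opposite way, from 2.74 and 2.81 TPM at 3 weeks to 0.45 to 0.87 TPM, a log2 difference of -1.17 (SE 0.219, adjusted p = 0.00102). Usp29 (1.00) and Zim1 (0.71) beside Peg3, Phactr2 (0.87) near Plagl1 and Cobl (0.94) near Grb10 were higher at 8 weeks. Ndn itself, in the same cluster as Ube3a and Mkrn3, did not pass.

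At other imprinted loci, Peg13, a noncoding RNA, had 43.3 and 44.4 TPM at 3 weeks and between 69.4 and 158 TPM at 8 weeks, a log2 difference of 1.48 (SE 0.244, adjusted p = 0.000415). Peg10, a retrotransposon-derived gene (1.34), Zdbf2 (1.23), the actin-binding neurabin gene Ppp1r9a (1.12) and the Ras exchange factor gene Rasgrf1 (0.81) were higher as well. Airn, the antisense RNA of the Igf2r locus, was lower, from 2.74 and 2.82 TPM to 1.75 to 2.17 TPM, at -0.35 (SE 0.113, adjusted p = 0.0238). Airn is read on the strand opposite Igf2r, so the limit on strand holds for it too.

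In the IGF axis the receptor gene Igf1r was higher at 8 weeks by 0.83 (SE 0.178, adjusted p = 0.00252) and the adaptor genes Irs2 by 1.78 (SE 0.413, adjusted p = 0.00410) and Irs1 by 0.46 (SE 0.162, adjusted p = 0.0360). Of the binding proteins, which hold IGFs in the tissue, Igfbp5 was higher by 0.98 (SE 0.168, adjusted p = 0.000545) and Igfbp3 lower by -0.59 (SE 0.161, adjusted p = 0.0100). The Irs1 call was lost in 11 of 29 alternatives. Of the other genes named from these lists, Airn lost its call in 3, Igfbp3 and Cobl in 2 each, and Zim1, Rasgrf1, Igf1r and Irs2 in 1 each. All of these were fits without one of the 3-week controls, except that Airn was also lost against the KO-line controls alone. The mRNA-binding genes Igf2bp1 and Igf2bp3 were at most at 0.15 and 0.12 TPM.

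**Figure D4:**
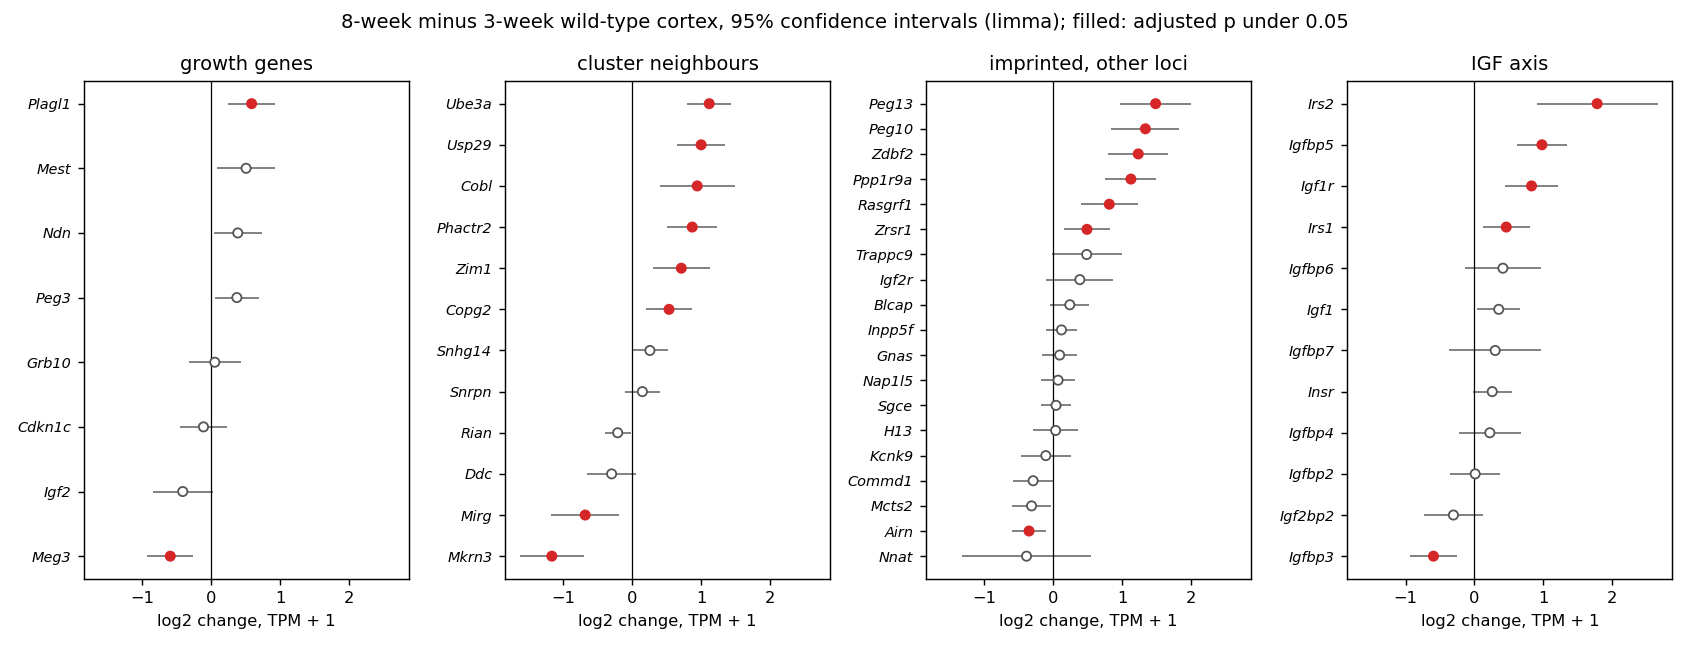
Log2 differences between 8-week and 3-week wild-type mice with 95% confidence intervals (horizontal axes, log2(TPM + 1) scale) for the members, their cluster neighbours, imprinted genes of other loci and the IGF axis, with filled points for an adjusted p under 0.05. Most filled points lie right of 0, from 0.46 for Irs1 to 1.78 for Irs2, and Meg3, Mirg, Mkrn3, Airn and Igfbp3 lie left of it.

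Cell type markers differed between the ages too. Cortical neuron markers were higher at 8 weeks in wild-type mice for 6 of 9 genes and none lower, against 24.8% of all genes higher and 11.3% lower, with sums of 3053 to 5459 TPM and of 2755 and 3044 TPM at 3 weeks. Oligodendrocyte markers were lower for 5 of 8, and the 2 hypothalamic neuropeptide genes tested of 9 were lower. Leptomeningeal markers were higher for 2 of 12, endothelial for 2 of 8 and mural for 1 of 8. By sign alone, changes were above 0 for 10 of 12, 7 of 8 and 8 of 8 of these, as for 9841 of the 16265 genes. All 3 choroid plexus markers tested had changes below 0, and only Ttr passed, at -3.89, which was -0.12 without P209L control 2. That mouse had 1786 TPM of these markers in sum, and the other 3-week control had 11.1 TPM, within the 6.03 to 29.4 TPM of the 8-week controls. Of 6 striatal markers 0 passed. Without P209L control 2 there were 1 of 9 cortical neuron markers higher, 1 of 8 oligodendrocyte and 1 of 2 hypothalamic markers lower, 0 leptomeningeal, 0 endothelial and 1 mural markers higher. Without KO control 1 there were 9 of 9 cortical neuron, 3 of 12 leptomeningeal, 4 of 8 endothelial, 3 of 8 mural and 1 of 6 striatal markers higher, and 5 of 8 oligodendrocyte markers lower. In the mutants leptomeningeal markers were higher at 8 weeks for 8 of 12, mural for 8 of 8 and endothelial for 7 of 8, against 32.1% of all genes higher and 13.9% lower. Their part in the differences of the members between ages was not tested.

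The genes most like Igf2 and Meg3 over the 12 mice of 8 weeks were found by Pearson's r of log2(TPM + 1). For Igf2 they were the small nuclear RNA gene Gm25679 (r = 0.928, Spearman's rho = 0.824), Notum, a secreted Wnt inhibitor gene (0.876 and 0.853), and Igfbp2, an IGF binding protein gene (0.875 and 0.867). For Meg3 they were the noncoding gene Gm27000 (0.989 and 0.972), Rgs11, a regulator of G protein signalling (0.987 and 0.951), and Hdac7, a histone deacetylase gene (0.982 and 0.965). They were picked as the highest of 16265 genes, so the values are descriptions, and all points share the totals of their libraries. Group means were not removed and KO control 1 was kept, so differences between groups and that mouse enter these values. Among the members themselves the highest r was 0.795 for Peg3 and Ndn, and the lowest was -0.489 for Igf2 and Mest.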

How the data were processed

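Bulk cortex RNA was sequenced from 17 mice after a TruSeq stranded total RNA library preparation. The authors deposited TPM per gene symbol, a normalized unit in which each column sums to 1000000 TPM, and no counts, so depth is unknown. The submitters' processing notes name Trim Galore, STAR 2.7.1a, GATK 4.0.4.0, RSEM and mm10, without their roles or order. The annotation release and the strand setting are not given in the sources used here.

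From 55573 entries, 120 repeats of a symbol were summed into it, leaving 55453 symbols, of which 54510 (98.3%) matched GENCODE M21. Genes with a mean of at least 1 TPM over all mice were kept, and log2(TPM + 1) was modelled over all 6 groups at once by lmFit, contrasts.fit and eBayes with a trend, from limma 3.58.1 (R 4.3.3). This scale understates the change of low genes. Tests were two-sided, the Benjamini-Hochberg adjustment covered every gene tested, with a threshold of 0.05, and intervals are 95%. The fit was tested on simulated data.

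The members and the gene lists were chosen with earlier results of these data known. All 10 members are named, and up to 6 genes per list of cluster neighbours, other imprinted loci and IGF axis with the smallest p past the threshold between the ages of controls, any gene of these lists past it in a mutant line, and the 3 genes most like each of Igf2, Dlk1 and Meg3 where tested. Alternatives were pseudocounts of 0.1 and 0.5, no filter, a mean of at least 5 TPM, median-of-ratios or quantile normalization, removal of mitochondrial genes, only the groups compared, a replicate block, robust fitting, sample weights, each mouse left out, and the 8-week controls of each line alone. List and marker counts without KO control 1 or P209L control 2 were added after seeing the data.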

Additional observations from a re-analysis of the deposited data

Results flagged for a closer look

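Of the 10 members tested for a sample far from the others among the 6 controls of 8 weeks, 2 were flagged, both for KO control 1, the mouse with 20.1% mitochondrial transcripts. Chance flags about 1 in 20 such groups. Peg3 was at 83.8 TPM there and between 131 and 137 TPM in the other 5 controls, and the gap took 0.905 of the range on the log2(TPM + 1) scale, above the critical ratio of 0.625. Grb10 was at 11.9 TPM there and between 18.5 and 23.6 TPM in the others, with a ratio of 0.641. Igf2 went opposite ways in different lines. Its log2 change was 0.53 in KO mice, every one above its controls, and -1.03 in P209L mice, every one below its controls. Neither change passed (adjusted p = 0.999 and 0.123 by limma). Groups without overlap were found for 5.43% of all genes with KO mice higher and for 24.9% in either direction in P209L mice. The difference between the KO and P209L lines alone was not tested, and these lines also differed in age. The mean of the KO and R206W changes less the P209L change is the same quantity as the difference of postnatal changes above. For Igf2 it was 1.22 (SE 0.270) and did not pass (adjusted p = 0.234 by limma).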

How the results depend on the processing

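Between 8-week and 3-week mutants Igf2 (0.59 to 0.89) and Cdkn1c (0.80 to 1.17) passed in all 28 alternatives. Over all member values, 1475 kept their direction and side of the threshold, 40 passed only in the alternative, 26 passed only in the reported fit and 43 turned sign. Where not stated, the cause was not tested.

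In KO mice sample weights put 4 members past the threshold instead of 0. In P209L mice 1 passed with median-of-ratios, quantile normalization, mitochondrial genes removed or sample weights, 2 with the replicate block, and 0 to 1 with a mouse left out (1 without KO control 1). Between control ages 2 became 5 with mitochondrial genes removed, 6 with sample weights, 1 with KO-line and 5 with R206W-line controls alone, and 0 to 5 with a mouse left out (0 without P209L control 2, 1 without P209L control 1, 5 without KO control 1). Between mutant ages 5 became 3 without a filter and with median-of-ratios or quantile normalization, and 2 to 8 with a mouse left out (2 without P209L 2, 8 without KO control 1). For the difference of the postnatal changes 0 became 1 with median-of-ratios, quantile normalization, the block or sample weights. Counts over all genes also moved, to 2156 from 1 with sample weights in KO mice and to 72 from 16 in P209L mice.

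Values that turned sign, all small, were with sample weights Grb10 (-7.2e-05) and Ndn (-0.062) in KO, Cdkn1c (-0.0096) and Grb10 (-0.0023) in R206W, Plagl1 (0.022) and Mest (-0.031) in P209L, and Peg3 (-0.015) for KO against R206W effects. With median-of-ratios they were Cdkn1c in R206W (-0.00070) and Grb10 between control ages (-0.058). With quantile normalization they were Cdkn1c in R206W (-0.0030), Grb10 between control ages (-0.13), and Meg3 for KO against R206W effects (-0.011) and for the difference of postnatal changes (-0.058). With KO-line controls alone Grb10 was -0.066. With a mouse left out, KO values ran from -0.31 to 0.012 for Peg3, -0.073 to 0.27 for Ndn and -0.37 to 0.0046 for Mest. R206W values ran from -0.059 to 0.082 for Cdkn1c and -0.083 to 0.11 for Grb10. P209L values ran from -0.069 to 0.096 for Meg3, -0.098 to 0.070 for Plagl1, -0.15 to 0.024 for Grb10 and -0.028 to 0.27 for Mest. Grb10 between control ages ran from -0.018 to 0.17, Peg3 for KO against R206W effects from -0.13 to 0.19, and for the difference of postnatal changes Peg3 ran from -0.13 to 0.074 and Mest from -0.28 to 0.019.

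No source used here says whether replicate numbers pair the mice, and the reported fit did not pair them. With 2 or 3 mice a group, the correlations below cannot decide it. Deviations of same-numbered mice correlated at -0.058 to 0.331 in the KO line, -0.113 to -0.028 in the R206W line and 0.0028 to 0.081 in the P209L line. With the replicate block 0 members passed in KO and R206W mice, 2 in P209L mice (Cdkn1c -0.97, Igf2 -1.14), 3 between control ages, 5 between mutant ages and 1 for the difference of postnatal changes (Cdkn1c 1.14). The block turned the sign of Meg3 in P209L (-0.054), Grb10 between control ages (-0.0059) and Peg3 for the difference of postnatal changes (0.023).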
